A study of Mus musculus with 8 samples.

Results

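Dlx transcripts were followed in the palatal shelves of Pax9 null mouse embryos at embryonic day 13.5 and of their controls. The set holds 8 of the 19083 genes in the deposited FPKM table, namely the homeobox genes Dlx1, Dlx2, Dlx3, Dlx4, Dlx5 and Dlx6 and the noncoding antisense RNAs Dlx1as and Dlx6os1. They were found by matching the Ensembl identifiers to their symbols. The genes were chosen by their FPKM values in the null libraries against the wild-type and heterozygote libraries, which were known when the set was proposed. Their levels in null against control shelves are therefore a description, and where the fit across all genes also gave calls for them, these are counted but nothing is read from them.

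Palatal shelves grow out from the maxillary processes and join to make the secondary palate, and the 8 libraries were made from shelves dissected from C57BL/6 embryos whose treatment is labelled as not applicable. The genotype label was Pax9-/- for 4 libraries (null), Pax9+/+ for 2 (wild type) and Pax9+/- for 2 (heterozygote), and the last 2 groups together are called controls (n = 4). The labels do not name the Pax9 allele or say whether each library is a single embryo or whether embryos shared a litter, so p-values measure the spread between these 8 libraries. Poly(A) RNA was sequenced with a kit that does not keep the strand. FPKM, the unit of all levels here, is a count of fragments scaled to gene length and to the fragments of the library.

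Pax9 itself lay between 7.19 and 10.3 FPKM in the null libraries and between 26.2 and 35.8 in the controls. The steps between low FPKM values gave the reads behind them, which totalled 37069101 to 51210254 per library over all genes. Markers of palatal mesenchyme, among them Osr2, Barx1 and Twist1, were present in every library, with summed levels of 932 to 981 FPKM in null and 745 to 860 in control shelves over 10 genes. Of these 10 only Osr2 had an adjusted p under 0.05 (limma, adjusted p = 0.0286), at 160 FPKM in null against 96.0 in control shelves. Of all tested genes 0.228% passed and were higher in null. Barx1 was at 328 against 269. In all, 8 of the 10 had a log2 difference above 0, where the median of all tested genes was −0.01. Prrx1 and Mn1 were lower in null, at 76.7 against 83.3 and 33.0 against 34.5. The part of the higher sum in the Dlx levels was not tested. In a bulk dissection, more cells of a type and more RNA per cell cannot be told apart. The first principal component of the deviations from the null and control means held 46.2% of their variance. It had null 1, null 2 and both wild types, the first 4 columns of the table, on one side and null 3, null 4 and both heterozygotes, the last 4, on the other. Among the controls this main axis and column order therefore cannot be told apart from genotype.

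Dlx proteins are homeodomain transcription factors related to Distal-less of Drosophila. Their genes lie in pairs that are transcribed towards each other and share enhancers between them. In the pharyngeal arches of the mouse, Dlx1 and Dlx2 are active in both upper and lower jaw primordia, whereas Dlx5 and Dlx6 mark the lower jaw primordium, where their loss in mouse gives a jaw with upper jaw features. Dlx3 and Dlx4 are active more distally still, and Dlx3 also in epithelia and bone. The RNA of Dlx6os1 (Evf2) is known from the mouse forebrain, where it acts on the enhancers of Dlx5 and Dlx6.

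In mm10, Dlx1 (ENSMUSG00000041911, chr2:71528113-71533981, plus strand) and Dlx2 (ENSMUSG00000023391, chr2:71543408-71546754, minus strand) are 9.4 kb apart. Dlx1as (ENSMUSG00000084946, chr2:71516454-71537891, minus strand) runs across the whole of Dlx1. Dlx6 (ENSMUSG00000029754, chr6:6863334-6868568, plus strand) and Dlx5 (ENSMUSG00000029755, chr6:6877805-6882085, minus strand) are 9.2 kb apart, and Dlx6os1 (ENSMUSG00000090063, chr6:6820189-6871592, minus strand) runs across Dlx6. Dlx3 (ENSMUSG00000001510, chr11:95120119-95125296, plus strand) and Dlx4 (ENSMUSG00000020871, chr11:95140447-95146263, minus strand) are 15.2 kb apart.

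**Figure D1:**
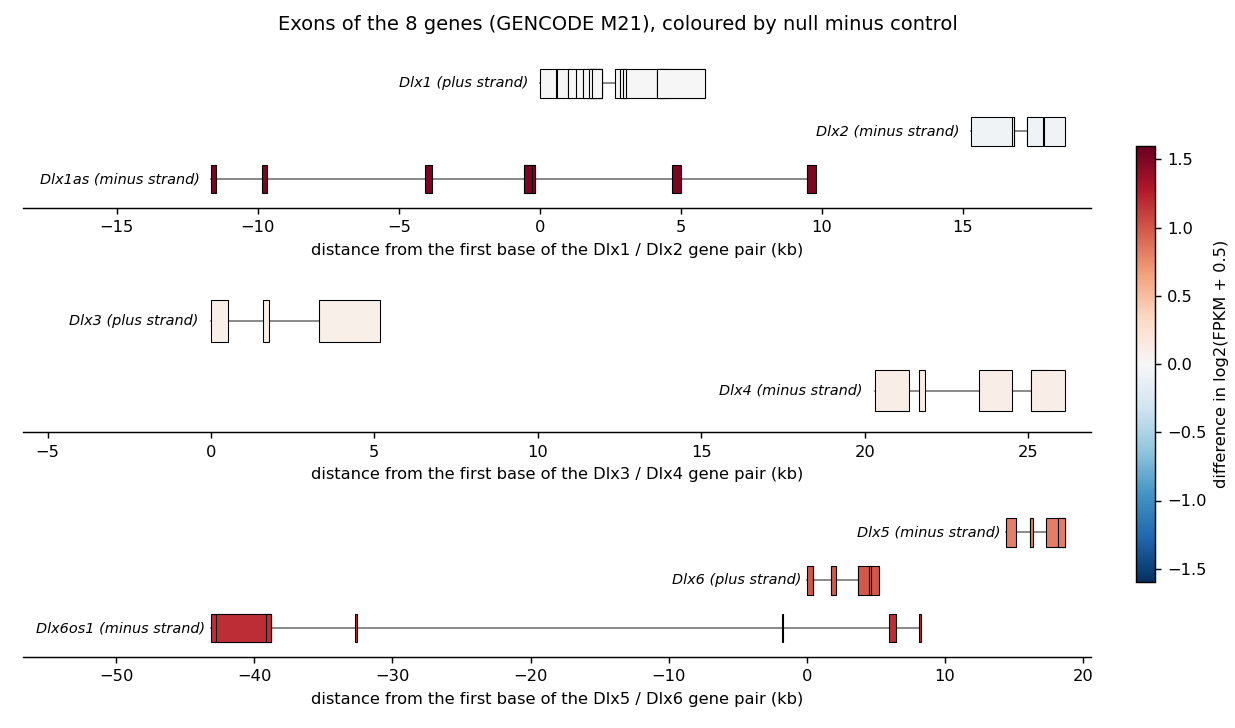
Exons of the 8 genes in GENCODE M21 (boxes) along their loci, in kb from the first base of each gene pair, with exons of all annotated transcripts drawn. Colour gives the difference between null and control shelves in log2(FPKM + 0.5), which was 1.51 for Dlx1as, 1.18 for Dlx6os1, 0.99 for Dlx6 and 0.82 for Dlx5 and between −0.07 and 0.11 for the other genes.

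The 3 stretches below come from the noncoding RNAs, which had the highest ratios of null to control level. The first is the start of the first exon of the transcript Dlx1as-202 (GENCODE M21 sequence, GRCm38, chr2:71537742-71537891, minus strand). The nearer end of that exon lies 3.6 kb beyond the last base of Dlx1, so the exon is outside the stretch that both genes share. The others are the windows from 250 bases before to 50 bases after each of the 2 starts of Dlx6os1 (RefSeq, GRCm38.p6, minus strand), of which chr6:6869484-6869783 lies 0.9 kb beyond Dlx6 and chr6:6861634-6861933 lies 1.4 kb before it. Capitals mark the homeodomain core words TAATTA and TAATTG, read on both strands (the latter reads CAATTA on the other strand).
Dlx1as first exon: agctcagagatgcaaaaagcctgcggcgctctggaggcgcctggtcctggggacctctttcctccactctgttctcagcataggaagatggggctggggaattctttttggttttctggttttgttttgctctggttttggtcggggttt
Dlx6os1 start 1: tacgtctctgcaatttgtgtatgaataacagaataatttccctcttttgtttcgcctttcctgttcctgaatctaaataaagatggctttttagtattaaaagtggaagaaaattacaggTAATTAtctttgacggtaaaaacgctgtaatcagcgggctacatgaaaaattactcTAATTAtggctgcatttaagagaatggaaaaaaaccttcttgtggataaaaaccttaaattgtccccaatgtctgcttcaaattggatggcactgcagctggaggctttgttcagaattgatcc
Dlx6os1 start 2: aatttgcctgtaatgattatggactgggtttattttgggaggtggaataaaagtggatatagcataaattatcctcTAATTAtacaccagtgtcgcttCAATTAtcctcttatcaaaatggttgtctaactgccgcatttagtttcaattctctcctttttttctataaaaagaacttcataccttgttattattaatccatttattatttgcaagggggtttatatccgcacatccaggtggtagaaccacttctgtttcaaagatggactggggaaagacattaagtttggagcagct

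Each Dlx6os1 window held 2 of these words, as did 1.74% of all 32851 promoter windows of the same length counting 2 or more, while 12.4% held at least 1. The windows of Dlx1 and Dlx2 held 0 of either word. GC content was 35.7% and 35.3% in the Dlx6os1 windows, against 68.0% and 66.4% in the 250 bases before the starts of Dlx1 and Dlx2. RefSeq windows were matched for 3 of the 8 genes, Dlx1, Dlx2 and Dlx6os1. Such a match is a run of letters, not a measured binding site.

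Among the Dlx transcripts, Dlx1 and Dlx2, which are active in both upper and lower jaw primordia, were the most abundant and were at similar levels in all genotypes. Dlx1 stood at 28.03, 27.8, 29.1 and 30.6 FPKM in null libraries 1 to 4, at 28.7 and 25.8 in the wild types and at 30.9 and 29.8 in the heterozygotes. Dlx2 stood at 28.8, 26.5, 24.9 and 25.4 FPKM in null, 29.8 and 28.2 in wild type and 28.1 and 25.2 in heterozygote libraries. The groups overlapped for both genes. Null minus control, the difference in log2(FPKM + 0.5) was 0.01 for Dlx1 (standard error 0.06) and −0.07 for Dlx2 (0.07).

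The antisense RNA of Dlx1 was about 3 times as abundant in every null library as in the controls. Dlx1as was at 10.3, 9.37, 9.58 and 10.5 FPKM in null libraries 1 to 4, at 2.58 and 3.44 in the wild types and at 3.35 and 3.36 in the heterozygotes. The lowest null library was well above the highest control library, and the spread within either group was small. The means were 9.95 ± 0.56 in null and 3.18 ± 0.41 in control shelves (SD, n = 4 each), a ratio of 3.13 and a log2 difference of 1.51 with a standard error of 0.09. Within each library, the ratio of Dlx1as to Dlx1 FPKM was 0.329 to 0.368 in null and 0.0898 to 0.133 in control shelves.

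On opposite strands, exons of Dlx1as and Dlx1 have 335 bases in common, 20.6% of the exon length of Dlx1as, and reads there cannot be assigned by strand. Dlx1as had 579 to 822 reads in the null libraries and 193 to 214 in the controls. Were Dlx1 covered evenly, its reads on a stretch of 335 bases would number 353 to 500 in null and 330 to 442 in control libraries, more in each control library than the reads counted for Dlx1as. The rule by which the authors counted reads in shared stretches is not given in the sources used here.

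Dlx5, Dlx6 and Dlx6os1, the lower jaw pair and the RNA that runs across it, were also higher in every null library than in any control library. Dlx5 was at 24.2, 18.6, 17.4 and 14.5 FPKM in null libraries 1 to 4, at 12.0 and 11.8 in the wild types and at 10.4 and 7.36 in the heterozygotes. The gap between the groups was narrow, with null 4 and wild type 1 nearest to each other. The means of 18.7 ± 4.05 and 10.4 ± 2.13 (SD, n = 4 each) gave a ratio of 1.8 and a log2 difference of 0.82 (standard error 0.18).

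Dlx6 was at 6.83, 6.50, 5.66 and 4.69 FPKM in null libraries 1 to 4, at 2.73 and 3.31 in wild type and at 2.82 and 2.04 in heterozygote libraries. Its means were 5.92 ± 0.95 and 2.73 ± 0.52 (SD, n = 4 each), a ratio of 2.17 and a log2 difference of 0.99 (standard error 0.14). As for Dlx5, null 1 was the highest and null 4 the lowest null library, and heterozygote 2 was the lowest of all. Within libraries the ratio of Dlx6 to Dlx5 was 0.282 to 0.349 in null and 0.228 to 0.281 in control shelves, so that the groups only just failed to overlap.

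Dlx6os1 was at 2.40, 1.93, 1.92 and 1.498 FPKM in null libraries 1 to 4, at 0.595 and 0.576 in wild type and at 0.625 and 0.477 in heterozygote libraries. Null 1 was again the highest and null 4 the lowest null library, and the controls were close together. The means were 1.94 ± 0.37 and 0.568 ± 0.064 (SD, n = 4 each), a ratio of 3.41, the largest of the 8 genes. On the log2(FPKM + 0.5) scale, which understates changes of low genes, the difference was 1.18 (standard error 0.12). Dlx6os1 was counted from 291 to 613 reads in null and 96 to 143 in control libraries. Its exons share 0 bases with those of Dlx6, and the ratio of Dlx6os1 to Dlx6 was 0.297 to 0.351 in null and 0.174 to 0.233 in control shelves.

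**Figure D2:**
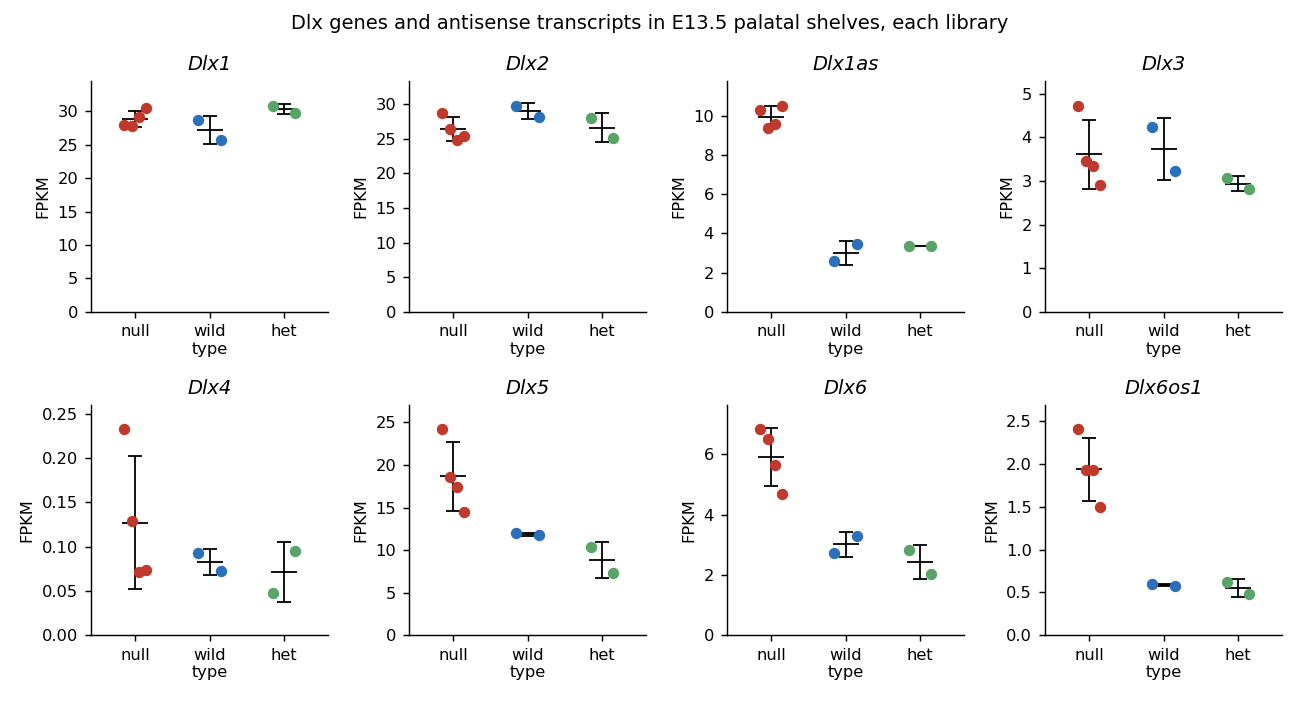
FPKM of each of the 8 genes in every library by genotype (points), with the mean and SD (black). Dlx1as, Dlx5, Dlx6 and Dlx6os1 lie higher in the 4 null libraries than in all control libraries, whereas the groups overlap for Dlx1, Dlx2, Dlx3 and Dlx4.

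**Figure D3:**
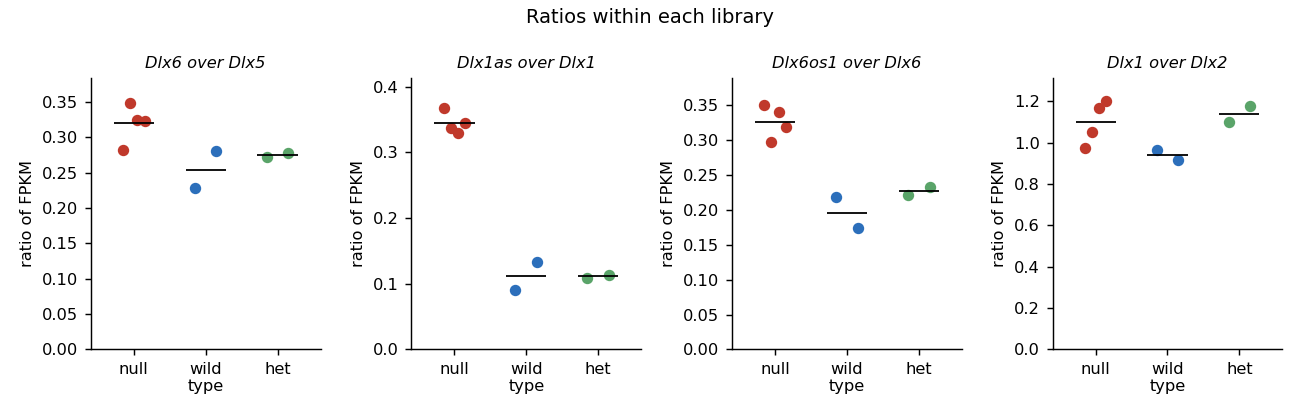
Ratios of FPKM between Dlx transcripts within each library by genotype (points; bars are means). The null libraries lie above the controls for Dlx1as over Dlx1 and Dlx6os1 over Dlx6, lie just above them for Dlx6 over Dlx5, and overlap them for Dlx1 over Dlx2.

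Dlx3, which acts in epithelium and bone as well as in the distal arch, was at 4.73, 3.45, 3.35 and 2.91 FPKM in null libraries 1 to 4, at 4.24 and 3.24 in the wild types and at 3.07 and 2.82 in the heterozygotes. The groups overlapped almost fully, with a log2 difference of 0.09 (standard error 0.15) that was −0.03 without null 1. Null 1 and wild type 1 were the highest library of their group both for Dlx3 and for the summed level of 9 epithelium markers, which was 207 FPKM in null 1 and 259 in wild type 1, and between 161 and 197 in the other libraries. Their part in the Dlx3 level was not tested.

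Dlx4, the partner of Dlx3, was close to absent, with 6 to 37 reads and at most 0.232 FPKM per library. It was below 1 FPKM in all 8 libraries, and so it was the 1 gene of the 8 not to enter the fits. Null 1 had the highest value, against 0.0717 to 0.129 in the other null libraries and 0.0474 to 0.0956 in the controls. Dlx4os, the antisense RNA beside Dlx4 and not one of the 8, was also highest in null 1, at 0.542 FPKM against 0.031 to 0.159 in the other libraries.

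By level per length, the order in control shelves was Dlx1 and Dlx2, at 28.8 and 27.8 FPKM, then Dlx5, then Dlx3, Dlx1as and Dlx6, then Dlx6os1 and Dlx4. Dlx1 and Dlx2 differed by less than their SDs of 2.18 and 1.93, and the means of Dlx3, Dlx1as and Dlx6, 3.34, 3.18 and 2.73, by less than the SD of 0.63 of Dlx3. In null shelves Dlx1as and Dlx6 stood above Dlx3. The level of Dlx5 depends on its gene model, since the FPKM values imply a length of 1426 bases where GENCODE M21 has 2263 bases of exons. At the longer length its means would be 11.8 FPKM in null and 6.55 in control shelves, which would leave its place in both orders and its ratio between groups as they are.

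Of the 8 genes, 4 had null values that were all above the control values, and of all 13600 genes tested 1.83% did. None of the 8 had null values all below the control values, against 3.3% of all genes tested. In the limma fit 3 of the 7 that entered it, Dlx1as, Dlx6 and Dlx6os1, had an adjusted p under 0.05, as did 0.419% of all tested genes in either direction. All 3 were higher in null, against 0.228% of all tested genes higher and 0.191% lower. Dlx6os1 entered the fits only through its null libraries, since no control library reached 1 FPKM for it. Nothing is read from these counts, because the set was chosen with this contrast known.

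The 2 control genotypes allowed a comparison that the choice of genes had not used, which asked whether 1 copy of Pax9 in place of 2 goes with a different level of the Dlx transcripts. None of the 7 genes tested passed, with 0 past the threshold (limma, adjusted p of 0.377 to 0.879) and 0 at an unadjusted p under 0.05. Over all genes the share called was 0.0%, while 1568 of the 13600, or 11.5%, had an unadjusted p under 0.05. With voom on the recovered reads 0 genes were called as well.

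Dlx5 had the largest difference in this comparison, at 8.86 ± 2.13 FPKM in heterozygote and 11.9 ± 0.16 in wild-type shelves (SD, n = 2 each). Its log2 difference of −0.42, heterozygote minus wild type, had a 95% interval from −0.92 to 0.07 (limma, adjusted p = 0.377). Dlx6 had a difference of −0.27 (interval −0.70 to 0.16) and Dlx3 one of −0.29 (−0.74 to 0.15). With the side of the main axis as a block, these differences were −0.02 for Dlx5, 0.07 for Dlx6 and 0.04 for Dlx3, with intervals of −0.60 to 0.57, −0.43 to 0.57 and −0.51 to 0.58. In that fit 0 of the 7 had an unadjusted p under 0.05, as did 0.941% of all genes. The size of the block came from the null libraries alone, since both wild types lay on one side and both heterozygotes on the other. The axis was itself drawn from deviations that include the difference between these control genotypes. Whether the axis accounts for the differences was not tested.

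For both antisense RNAs, whose null levels were more than 3 times those of the controls, the heterozygotes were close to the wild types. Dlx1as was at 3.36 ± 0.01 FPKM in heterozygote and 3.01 ± 0.61 in wild-type shelves (SD, n = 2 each), a log2 difference of 0.15 (95% interval −0.13 to 0.42; limma, adjusted p = 0.487). Dlx6os1 was at 0.551 ± 0.105 and 0.586 ± 0.014 FPKM, a log2 difference of −0.05 (interval −0.47 to 0.37; adjusted p = 0.879). With the side as a block they were 0.12 (−0.28 to 0.52) and 0.22 (−0.31 to 0.75). Dlx6os1 entered these fits only because its null libraries reached 1 FPKM. Its levels in both control genotypes lay near the pseudocount of 0.5, which shrinks its difference and interval. Without the block, that difference was −0.08 with a pseudocount of 0.1 and −0.10 with voom. Dlx1 and Dlx2 had differences of 0.15 (−0.02 to 0.33) and −0.12 (−0.32 to 0.08).

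**Figure D4:**
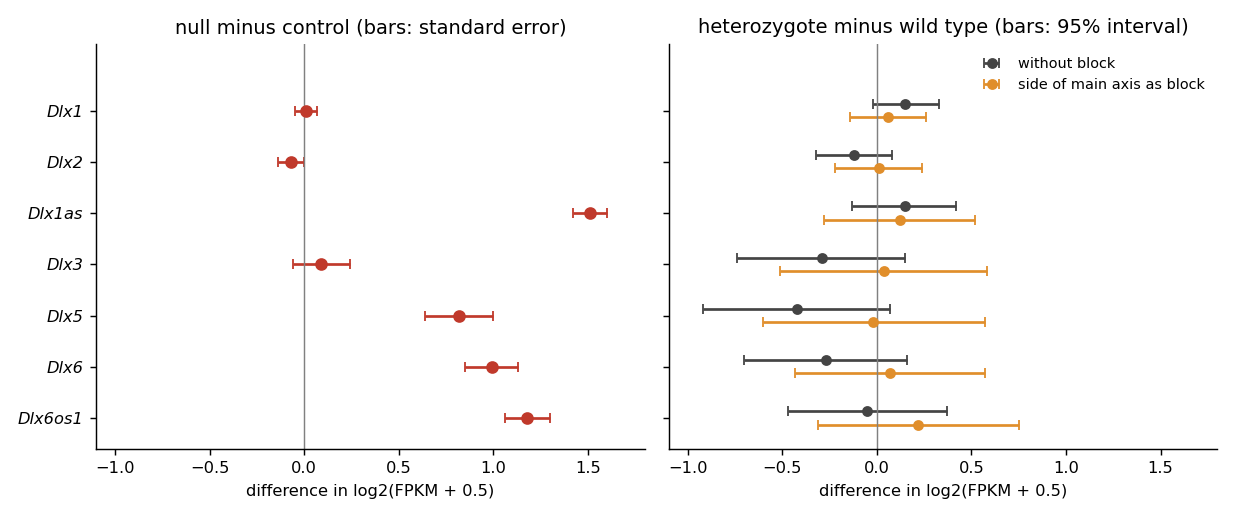
Differences in log2(FPKM + 0.5) for the 7 genes that entered the fits. The left panel gives null minus control with standard errors; the right panel gives heterozygote minus wild type with 95% intervals, without a block and with the side of the main axis as a block, and all of these intervals include 0.

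Each sample title also holds the number 44 or 56, whose meaning the labels do not give, and every genotype has both. The title number offered a further comparison that the choice of genes had not used. None of the 7 genes passed (limma, adjusted p of 0.689 to 0.899), where 0.0368% of all genes did, and 0 of the 7 had an unadjusted p under 0.05, against 7.03% of all genes. Dlx5 and Dlx3 had the largest differences, 0.28 (95% interval −0.02 to 0.58) and 0.26 (0 to 0.52) higher on the log2 scale in the libraries with 56. Dlx1as, by contrast, had a difference of −0.09 (−0.28 to 0.10).

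Genes known to act before, with or after Dlx factors were listed with earlier results of these data known. Of 44 such genes 42 were in the table and 35 were tested in null against control shelves, of which 0 rose, 2 fell (Msx1 and Spp1) and 33 did not pass. That is 5.71% of the listed genes tested, against 0.191% of all tested genes that fell and 0.228% that rose, and since the lists were made with these results known nothing is read from the difference. The median log2 difference of all tested genes was −0.01. The median was 0.01 over 7 genes of the endothelin signal, which switches on Dlx5 and Dlx6 in the lower jaw primordium of the mouse. With limma 0 of them passed, and the most abundant, the G protein subunit Gna11 and the endothelin-converting enzyme Ece1, were at 30.9 against 32.2 and 31.1 against 30.8 FPKM (null against control). The ligand Edn1 was at 1.26 against 1.25 FPKM and the receptor Ednra at 25.3 against 23.9.

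Of the lower jaw genes that depend on Dlx5 and Dlx6 in the mouse, 7 were tested and 0 passed, with a median of −0.12. The summed level of 3 lower jaw and tongue markers was 24.3 to 31.8 FPKM in null and 29.4 to 40.8 in control shelves. Hand2, the basic helix-loop-helix factor named here after its values were seen, was at 0.83 ± 0.70 FPKM in null and 4.07 ± 1.04 in control shelves (SD, n = 4 each), a log2 difference of −1.91 that did not pass (limma, adjusted p = 0.0769). The most abundant were the homeobox factor Barx1, at 328 against 269 FPKM (adjusted p = 0.158), and the growth factor Bmp7, with a log2 difference of 0.05. Of 4 upper jaw genes that Dlx5 and Dlx6 hold down in the mouse, 0 passed, with a median of −0.10. The most abundant of them were the POU factor Pou3f3, at 13.4 against 17.4 FPKM (adjusted p = 0.406), and the retinoic acid-degrading enzyme Cyp26a1, at 8.36 against 8.09.

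Targets of Dlx1 and Dlx2 in forebrain interneurons were mostly too low to test. Gad1, which makes the transmitter GABA and is a defining marker of these neurons, was at 0.0615 FPKM in null and 0.0946 in control shelves. Over 6 neuron markers the summed level was 11.2 to 56 FPKM in null and 16.5 to 63.8 in control shelves. The 2 that were tested did not pass, with Lhx6, a LIM homeobox factor also active in jaw mesenchyme, at 58.4 against 50.9 FPKM and the semaphorin receptor Nrp2 at 38.1 against 38.4.

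Among bone targets of Dlx5 and Dlx3, Spp1, which encodes the matrix protein osteopontin, fell, with 2.19 ± 0.40 FPKM in null against 4.09 ± 0.29 in control libraries (SD, n = 4 per group) and a log2 difference of −0.78 (limma, adjusted p = 0.0239). The other 4 tested did not pass, among them Runx2, the master factor of osteoblasts, at 13.3 against 12.6 FPKM and the collagen Col1a1 at 149 against 147. The summed level of 5 osteoblast markers was 19.3 to 22.5 FPKM in null and 18.4 to 26.2 in control shelves. Spp1 kept its call without null 2 or null 4 and lost it without any other single library, with an adjusted p of at most 0.082.

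Of 10 partners and regulators of Dlx factors, Msx1, a homeobox factor whose protein can pair with Dlx proteins, fell, with 33.5 ± 7.85 FPKM in null against 78.2 ± 17.3 in control libraries (SD, n = 4 per group) and a log2 difference of −1.21 (limma, adjusted p = 0.0277). It kept its call without null 1 or heterozygote 2 and lost it without any other single library, with an adjusted p of at most 0.101. The other 9 did not pass. Among them the groups did not overlap for Msx2 (3.63 FPKM in null against 5.88 in control shelves), Bmp4 (12.3 against 18.1) and Jag1 (14.4 against 16.1), all lower in null. Nor did they for Bmp2 (6.22 against 4.84), which was higher. Over all tested genes 3.3% did not overlap with null lower and 1.83% with null higher, and nothing is read from the difference. Maged1, whose protein binds Dlx5 and is the most abundant of the list, was at 248 against 252 FPKM, and the Dlx regulator Trp63 was at 11.5 against 10.6.

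**Figure D5:**
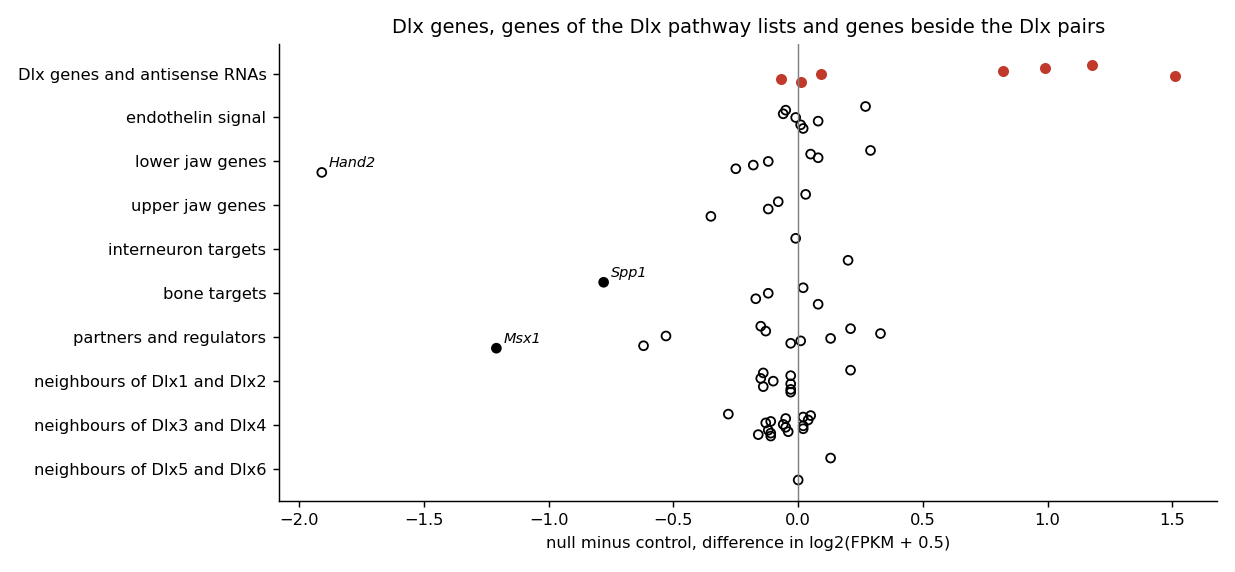
Null minus control difference in log2(FPKM + 0.5) for the 7 Dlx transcripts tested (red), for the listed pathway genes and for the genes within 500 kb of each Dlx pair (circles, filled where past the threshold). Msx1 and Spp1 are the filled ones, at −1.21 and −0.78, and the neighbours of the Dlx pairs lie between −0.28 and 0.21.

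Around the Dlx pairs, the table held 36 other genes within 500 kb of a pair, of which 27 were tested and 0 passed (limma), with differences between −0.28 for the neurotrophin receptor Ngfr and 0.21 for the kinase Pdk1. At the 0.419% called over all genes, a count of 0 among 27 does not set these neighbours apart. Metap1d, the nearest gene to Dlx1 and one that Dlx1as overlaps without shared exon bases, was at 10.4 ± 0.59 FPKM in null and 10.6 ± 0.41 in control shelves (SD, n = 4 each). Beside Dlx5 and Dlx6, the proteasome component Sem1 was at 74.8 against 75.0 FPKM and the assembly factor Sdhaf3 at 2.65 against 2.36.

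The profile over the 8 libraries most like that of Dlx1as belonged to the actin-binding protein gene Synpo2, with a root mean square difference of 0.04 between standardised log2 values. Also among the most alike were Fat4, a protocadherin, and Ccdc3, a secreted protein, at 0.21 each, and the protease Adamts9 at 0.23. For Dlx6 they were the sialyltransferase St3gal1 (0.15), the splicing factor Rbfox2 (0.23), the zinc-finger factor Tshz3 (0.25), Egln3 (0.27) and the collagen Col4a5 (0.28). For Dlx5 they were the amino acid transporter Slc7a10 (0.17), Rbfox2 (0.25), Tmem200c (0.26), Ankrd50 (0.29) and Igsf3 (0.29). Among the Dlx transcripts themselves, Dlx6 differed by 0.24 from Dlx6os1 and by 0.27 from Dlx5, and Dlx1as by 0.30 from Dlx6os1 and by 0.62 from Dlx5. Since these were chosen with the null against control contrast known and all were higher in null, likeness among them is partly built in. Nothing is read from it. Standardising also removes the size of a difference: null minus control, Rbfox2 had a log2 difference of 0.10, against 0.82 for Dlx5 and 0.99 for Dlx6.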

How the data were processed

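RNA from palatal shelves was measured in 8 libraries. The deposited values are FPKM, per the labels, in 1 column per library with 0 columns of other samples. Per the submitters' processing notes, Novoalign 2.08.03, DESeq2 and the build mm10 were used. No source used here gives the counting program, annotation or gene filter. Names and positions came from GENCODE M21 (GRCm38, 1-based), which held 18752 of the 19083 identifiers.

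Whole reads were recovered from the FPKM steps for 19083 genes within a tolerance of 0.03 of a read. A gene was tested where 2 or more libraries reached an FPKM of 1, which held for 13600. Values of log2(FPKM + 0.5) were fitted by limma 3.58.1 (R 4.3.3) with a mean-variance trend and two-sided tests, and p-values were adjusted across all 13600 by Benjamini-Hochberg, with a threshold of 0.05. Null against control was fitted with 2 groups and the other comparisons with 3. The fits were tested on simulated data, where those of 2 against 2 libraries (heterozygote against wild type) and of title number made more false calls than the threshold allows, so their p-values may be too small and their intervals too narrow. Summaries used Python 3.11.15.

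The genes, the lists and the rule for naming genes were chosen with earlier results of these data known. The rule names the 8 Dlx transcripts, Pax9, the list members past the threshold, the 2 most abundant of each pathway list and the 5 genes most like Dlx1as, Dlx5 and Dlx6 each. Of the genes it names, 1 is not reported here. Edn1, Ednra, Hand2, Gad1, Trp63, Dlx4os and the other neighbours fall outside it and were named after their values were seen. The same holds for Msx2, Bmp4, Bmp2 and Jag1 and for the markers Osr2, Twist1, Prrx1 and Mn1. Alternatives covered the pseudocount, the filter, the scaling, voom, blocks and each library left out.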

Additional observations from a re-analysis of the deposited data

Results flagged for a closer look

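Of 16 checks of the 8 genes for a library far from the others of its group, 1 was met: Dlx1as in wild type 1, at 2.58 FPKM, lay below the other 3 controls, which were at 3.35, 3.36 and 3.44. These 4 controls hold 2 genotypes, and such checks are met by chance in about 5% of groups.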

How the results depend on the processing

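For null against control, the 57 changed genes became 35 at a mean FPKM of at least 5, 176 with the side of the main axis as a block, 2 and 3 within the low and high side alone, 0 and 9 within title numbers 44 and 56 alone, and 16 to 52 with 1 library left out. Of the Dlx transcripts, chosen with this contrast known, 3 had an adjusted p under 0.05; this became 4 with the side as a block, where Dlx5 was added (limma, adjusted p = 0.0179), 1 at a mean FPKM of at least 5, 0 and 1 within the sides, 0 and 1 within the title numbers, and 2 to 3 with 1 library left out, where Dlx6 missed the threshold without null 1, null 2, null 3, wild type 1 or heterozygote 1. Of the listed pathway genes 2 passed, which became 1 at a mean FPKM of at least 5, 4 with the side as a block, 0 within either side or title number, and 0 to 1 with 1 library left out. The sides were drawn from the spread of these same libraries, so p-values with the side as a block may be too small. The log2 differences of Dlx5, Dlx6, Dlx1as and Dlx6os1 kept their sign in all alternatives run. Leaving out or splitting libraries could not reverse it, since all their null values lay above all control values, so nothing is read from the sign. Their size did vary, with Dlx6os1 from 0.90 (pseudocount 1) to 1.76 (voom) and Dlx1as from 1.39 to 1.66. For heterozygote against wild type, 0 to 1 genes changed with 1 library left out. There Dlx1as went from −0.03 to 0.33 and Dlx6os1 from −0.15 to 0.05; with the side as a block Dlx2, Dlx3, Dlx6 and Dlx6os1 were at 0.01, 0.04, 0.07 and 0.22. In that block fit the leave-outs ran from −0.02 to 0.14 (Dlx1), −0.07 to 0.09 (Dlx2), −0.17 to 0.24 (Dlx3), −0.25 to 0.22 (Dlx5), −0.12 to 0.26 (Dlx6) and −0.06 to 0.30 (Dlx1as), and Dlx5 was at 0.02 with the axis scores as a covariate. The 5 genes that differed by title number became 3 with voom, 8 with the side as a block and 1 to 4 with 1 library left out. The causes were not tested.

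The title numbers are not stated to mark litters. As a replicate block they gave 47 changed genes and 3 Dlx transcripts past the threshold for null against control. Deviations of libraries with the same number correlated at 0.09 to 0.345 over genes between the genotypes.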
